A study of Mus musculus with 34 samples.

Results

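Pericytes of mouse ear skin were described here as the cells with a high level of *Rgs5* and low levels of *Acta2* and *Myh11* among sorted cells of *Myh11-GFP* reporter mice. Pericytes sit on the abluminal side of capillaries and venules inside the basement membrane that they share with the endothelium, and they exchange signals with it through PDGFRβ, Notch3 and angiopoietins. Vascular smooth muscle cells (VSMCs) wrap arterioles and carry the contractile apparatus of smooth muscle α-actin (*Acta2*) and smooth muscle myosin heavy chain (*Myh11*). Mural cells of both kinds form a continuum along the vessel tree, and *Rgs5*, a regulator that shortens G protein signals, is found in both.

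The cells came from untreated ear skin of C57BL/6J Tg Myh11GFP/+ mice, in which the *Myh11* promoter drives GFP, and were sorted as CD45-GFP+ cells. Every cell compared here had therefore passed a GFP gate, and cells outside that gate were not sorted. By the paper, the sort was for VSMCs with high GFP. Some pericytes with low GFP and a small share of fibroblasts were collected as well. The sorted cells were sequenced by mCEL-Seq2 in 4 libraries, numbered 13 to 16 in the labels. Each library was a pool of 96 wells, with a cell barcode per well and a unique molecular identifier (UMI) per captured RNA molecule. Mice of all strains in the study were 7 to 12 weeks old and of either sex, but the number of mice behind these libraries was not given in the sources used here, so the libraries counted as 1 sample and no test between groups of cells was made. The other 30 of the 34 tables of the series hold mast cells of WT and *Tln1* knockout ear skin and served only as background.

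The pericytes were selected by their own *Rgs5*, *Acta2* and *Myh11* values: at least 20 *Rgs5* transcripts and fewer than 50 *Acta2* plus *Myh11* transcripts per 10000 transcripts outside predicted genes named Gm plus a number, in cells with more than 1000 transcripts and less than 0.5% of them from 5 striated muscle genes. This gave 139 pericytes, of 330 Myh11-GFP cells kept and of 2807 cells kept in the whole series. Their share of the kept Myh11-GFP cells was 42.1% (exact 95% binomial interval 36.7% to 47.7%), with 40, 36, 31 and 32 cells in libraries 13, 14, 15 and 16. This share depends on the sort and on the rule and is not the share of pericytes in the tissue. The cells they were compared with had 50 or more *Acta2* plus *Myh11* transcripts per 10000 and are called *Acta2*-*Myh11* high cells (150 cells; 40, 34, 45 and 31 in the 4 libraries). Of the rest, 24 cells had low *Rgs5* and low *Acta2* plus *Myh11* (called other cells), and 17 had striated muscle genes at or above the limit. Pericytes had a median of 4581 transcripts per cell (range 1020 to 18534) and *Acta2*-*Myh11* high cells 4545 (1028 to 13889). Genes named Gm plus a number took a median of 10.7% of the transcripts of a pericyte and 8.84% of those of an *Acta2*-*Myh11* high cell, which is why levels are given per 10000 transcripts outside them. Libraries 13 and 15 used one set of 96 cell barcodes and libraries 14 and 16 the other, so that kept cells of libraries 13 and 15 shared 80 barcodes and those of libraries 14 and 16 shared 58, each library having its own index.

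**Figure D1:**
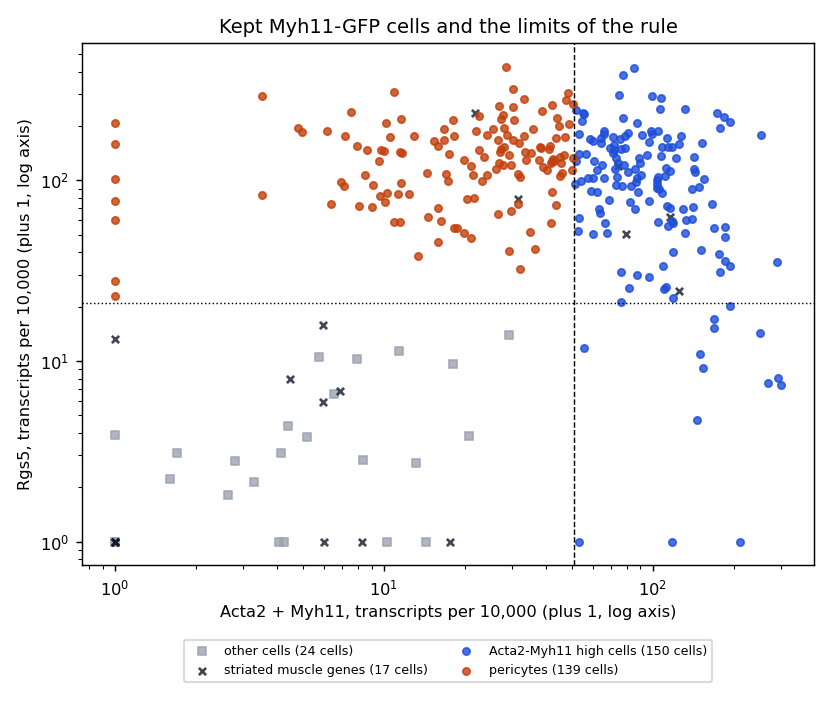
Each point is 1 of the 330 kept Myh11-GFP cells, with *Acta2* plus *Myh11* on the horizontal and *Rgs5* on the vertical axis, both in transcripts per 10000 plus 1 on log axes. The dashed line marks the limit of 50 and the dotted line that of 20, and the 139 pericytes and the 150 *Acta2*-*Myh11* high cells adjoin each other at the dashed line with no gap between them.

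The limit on *Acta2* plus *Myh11* ran through a continuous range of cells. The highest pericyte stood at 49.6 and the lowest *Acta2*-*Myh11* high cell at 50.3 transcripts per 10000, with 25 pericytes at 40 or above and 21 high cells under 60. The *Rgs5* limit fell in a sparser range, in which the lowest pericyte had 21.9 and the highest of the other cells 13 *Rgs5* transcripts per 10000. *Rgs5* itself did not set pericytes apart from the cells above the limit, since 136 of the 150 *Acta2*-*Myh11* high cells also reached 20. The median pericyte had 131 *Rgs5* transcripts per 10000 (quartiles 84.3 and 176) and the median *Acta2*-*Myh11* high cell 102 (55.5 and 157).

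The label of pericytes was checked against 4 marker genes that the rule did not use as such, all measured in the cells that the rule selected, so that their levels are a description. *Kcnj8* and *Abcc9* encode the pore (Kir6.1) and the sulfonylurea receptor (SUR2) of the ATP-sensitive potassium channel of mural cells, *Steap4* a metalloreductase, and *Higd1b* a small protein of the hypoxia-inducible domain family. Of the 139 pericytes, 115 (82.7%) had a UMI of at least 1 of the 4 genes, against 53 of 150 *Acta2*-*Myh11* high cells (35.3%). After every cell was thinned to 1000 UMIs, which left out 11 pericytes and 10 high cells with fewer, these shares were 64.8% and 12.9%. The remaining 24 pericytes (17.3%) had no UMI of any of the 4 and were named by *Rgs5* alone. Of the 24 other cells, which had low *Rgs5*, 13 (54.2%) also had a UMI of at least 1 of the 4 genes, a larger share than in the high cells. The other cells had more transcripts at the median than either group, and their share is not given after thinning. A UMI of these genes was thus not confined to cells that reached the *Rgs5* limit. The 376 barcodes that were not in use and not kept held 1 *Kcnj8*, 5 *Abcc9* and 3 *Steap4* UMIs in all, against 187, 295 and 243 in the pericytes. In the 2477 kept mast cells, which should lack these genes, 0.525% had a *Kcnj8*, 0.727% an *Abcc9* and 0.363% a *Steap4* UMI, at a median of 5441 transcripts per cell.

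*Abcc9* stood at 5.17, 5.72, 4.13 and 5.23 transcripts per 10000 in the pericytes of libraries 13, 14, 15 and 16 and at 1.59, 0.659, 0.517 and 0.745 in the *Acta2*-*Myh11* high cells. All 4 pericyte values lay above all 4 of the others, and over all cells the level was 5.47-fold higher (5.14 against 0.939; exact 95% interval of the ratio 4.12 to 7.38, counting error only, as for all intervals of levels and ratios here). *Kcnj8*, next to *Abcc9* on chromosome 6 (GRCm38, chr6:142564837-142571614 and chr6:142587862-142702315, both minus strand), stood at 3.43, 3.05, 3.12 and 3.49 in pericytes and at 0.338, 1.10, 0.723 and 1.24 in the high cells. These groups did not overlap either, and the ratio was 4.37 (3.15 to 6.18). With every cell thinned to 1000 UMIs the log2 ratio of *Kcnj8* was 1.09 in place of 2.13. *Steap4* had 2.90, 6.06, 4.64 and 2.79 transcripts per 10000 in pericytes against 0.820, 0.220, 0.258 and 0.124, a ratio of 10.1 (6.70 to 15.7), the highest of the 4 markers. Library 13 weighed on both this gene and *Abcc9*: without it the log2 ratio of *Steap4* went from 3.33 to 4.48 and that of *Abcc9* from 2.45 to 3.07. *Higd1b* was the exception: at 1.05, 1.33, 0.590 and 1.16 in pericytes and 0.386, 0.586, 0.723 and 0.745 in the high cells the libraries overlapped, and its ratio of 1.82 (1.19 to 2.83) was not past 2-fold. In single pericytes *Kcnj8* and *Abcc9* were often found together: 64.8% of the pericytes with an *Abcc9* UMI also had a *Kcnj8* UMI and 25.0% of those without, shares that were not corrected for the depth of the cells.

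Across all genes, 5421 genes with at least 30 UMIs over both groups were compared, and a gene was counted as higher or lower where its level differed at least 2-fold and in the same direction in each of the 4 libraries. By this count 195 genes were higher in pericytes (3.6% of those compared) and 230 lower (4.24%), and the median log2 ratio over all genes was -0.02. Counts for single lists below stand beside these shares. Since the cells were chosen by *Acta2* and *Myh11*, genes that vary with these 2 had to differ, and the counts describe the cells and do not test them. The share of the 5421 genes whose library values did not overlap between the groups is not given here. A lack of overlap in a named gene is therefore a description as well.

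Among 25 other genes used to mark pericytes, 20 had enough UMIs, and their median log2 ratio was 0.34. Of these, 6 were higher and 2 lower, and the 12 others were counted as neither. *Vtn*, encoding the matrix protein vitronectin, stood at 2.43, 2.72, 3.71 and 3.61 transcripts per 10000 in the 4 libraries of pericytes and at 1.35, 0.0733, 0.775 and 1.24 in the high cells, a ratio of 3.39 (2.48 to 4.69). *Colec11*, a collectin that binds sugars of microbes, was 4.30-fold higher (2.86 against 0.664), and *Enpep*, the aminopeptidase A that trims angiotensin II, 3.96-fold (1.22 against 0.308). *P2ry14*, a receptor for UDP-sugars, *Art3*, of the ADP-ribosyltransferase family, and *Gja4*, the gap junction protein connexin 37, were 3.98-, 2.69- and 2.32-fold higher.

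The list did not move as one. *Cspg4*, which encodes the NG2 proteoglycan and is the most widely used surface marker of pericytes, was lower in these cells, at 0.580, 0.333, 0.590 and 0.233 transcripts per 10000 against 2.85, 3.37, 2.48 and 2.11 in the *Acta2*-*Myh11* high cells. The groups did not overlap, and the level was 6.08-fold lower (interval 4.01 to 9.57). *Aoc3*, the vascular adhesion protein and amine oxidase of smooth muscle, was 2.11-fold lower (4.79 against 10.1), and *Mcam*, the adhesion molecule CD146, had a ratio of 0.591 (4.89 against 8.28), short of 2-fold but lower in each library. *Pdgfrb*, the receptor through which endothelial PDGF-B recruits mural cells, had 6.33, 7.33, 8.35 and 7.56 transcripts per 10000 in pericytes and 4.44, 3.81, 4.08 and 4.22 in the high cells, with no overlap and a ratio of 1.74 (1.49 to 2.04). *Notch3*, the Notch receptor of mural cells, did not separate the groups, with 11.6, 13.2, 11.1 and 10.7 against 12.4, 11.5, 11.4 and 10.3 and a ratio of 1.02 (0.918 to 1.14). *Ndufa4l2*, a mitochondrial protein often listed for pericytes, stood at 3.48 and 3.45 (ratio 1.01, 0.828 to 1.23).

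**Figure D2:**
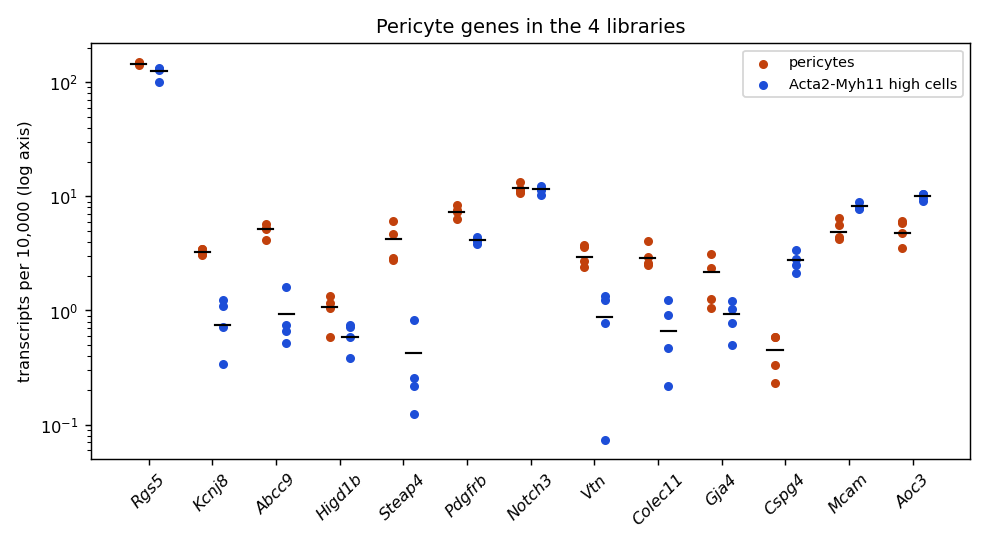
Levels in transcripts per 10000 (log axis) of 13 pericyte genes in pericytes (orange) and *Acta2*-*Myh11* high cells (blue), with 1 point per library and a bar at the level over all cells. A point is missing where a library had no UMI. *Kcnj8*, *Abcc9*, *Steap4*, *Vtn*, *Colec11* and *Pdgfrb* have all pericyte points above the others, *Notch3* and *Higd1b* overlap, and *Cspg4*, *Mcam* and *Aoc3* lie lower in pericytes.

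Several markers have close relatives, and reads with more than 1 place had been discarded before counting. *Cox4i2*, the hypoxia-linked isoform of a cytochrome c oxidase subunit, had 10 UMIs in pericytes and 0 in the high cells, too few to compare, while its ubiquitous partner *Cox4i1* stood at 3.52 and 3.66 transcripts per 10000. *Abcc8*, the sulfonylurea receptor of other tissues, had no UMI in either group. Of the *Rgs5* relatives, *Rgs4* had 4.2 in pericytes and 3.16 in the high cells, a ratio of 1.33 (1.10 to 1.61), whereas *Rgs16* had 28.5, 29.0, 17.2 and 19.6 in the 4 libraries of pericytes against 6.23, 7.26, 3.99 and 2.11. The *Rgs16* groups did not overlap, and the level was 4.79-fold higher (4.23 to 5.41). *Rgs5* was at 148, 140, 146 and 150 in pericytes and 134, 99.7, 129 and 132 in the high cells, a difference the rule had a part in.

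The contractile genes were lower, as a list that shares its function with the 2 genes of the rule. Of 30 genes 29 were compared, and without *Acta2* and *Myh11* 19 of 27 were lower, 0 were higher and the median log2 ratio was -1.72. *Tagln*, the actin-binding protein transgelin, stood at 4.96, 7.33, 9.28 and 5.82 transcripts per 10000 in pericytes and at 30.6, 39.9, 36.5 and 27.9 in the high cells, 5.08-fold lower (4.54 to 5.66). *Cnn1*, encoding calponin, had no UMI in any pericyte and 49 in the high cells, which with 3 UMIs over the pericytes as the limit of a count of 0 was at least 15.2-fold lower. *Smtn* (smoothelin) and *Actg2* (smooth muscle γ-actin) had 2 UMIs each in pericytes against 47 and 70, giving 21.9-fold (5.72 to 186) and 32.6-fold (8.68 to 274) lower levels. The light chain and its kinase differed less: *Myl9* was 2.71-fold lower and *Mylk* had 19.3 against 34.7, a ratio of 0.557. *Des*, encoding desmin, at 3.55 and 3.80 (ratio 0.934, 0.770 to 1.13), and *Synpo2*, at 3.74 and 2.48 (ratio 1.51), were not lower by this count.

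Levels also changed inside the group of pericytes and inside the group of high cells. In bins of *Acta2* plus *Myh11* of under 10, 10 to 25, 25 to 50, 50 to 100 and 100 or more per 10000, with 33, 40, 66, 79 and 71 cells, *Abcc9* had 6.91, 5.20, 4.12, 1.52 and 0.277 transcripts per 10000. *Steap4* had 6.42, 5.38, 2.29, 0.729 and 0.0693, and *Mgp* had 26.1, 21, 21.6, 6.54 and 1.52. The drop was thus spread over the whole scale for *Abcc9* and *Steap4*, while *Mgp* changed little across the 3 lower bins. *Tagln* went the other way, with 4.63, 5.26, 8.82, 23.4 and 46.4. *Notch3* stayed between 10.4 and 12.7 in all 5 bins, and *Rgs5* had 137, 131, 159, 143 and 103. These bins are cut on the genes of the rule and have no test.

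**Figure D3:**
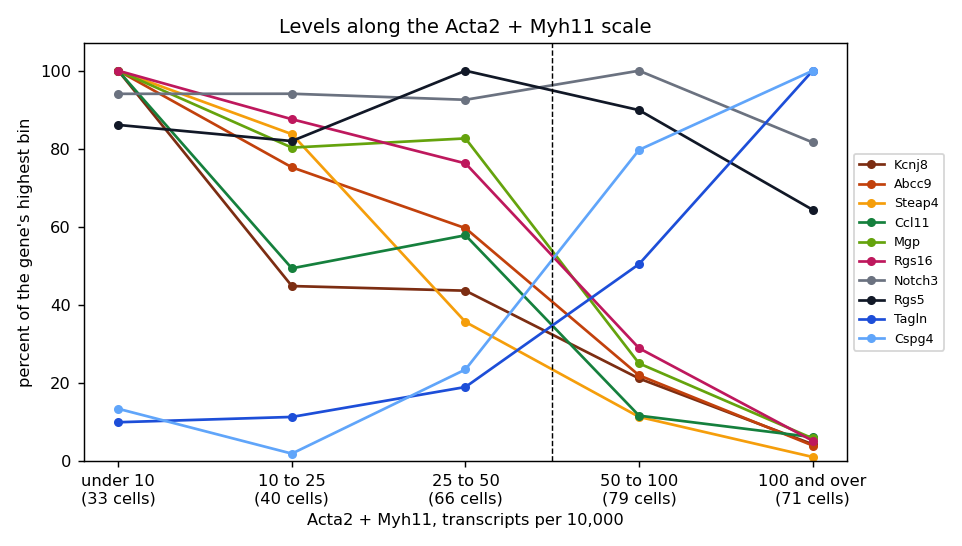
Level of 10 genes in 5 bins of *Acta2* plus *Myh11* (transcripts per 10000), each drawn as a percent of the gene's highest bin, with the dashed line at the limit of 50 between pericytes and *Acta2*-*Myh11* high cells. *Kcnj8*, *Abcc9*, *Steap4*, *Ccl11*, *Mgp* and *Rgs16* are highest in the bin under 10, *Tagln* and *Cspg4* in the bin of 100 and over, and *Notch3* changes little.

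The 12 genes with the highest ratio among the 195 were *Plvap*, *Cyp1b1*, *Steap4*, *Sned1*, *Plac8*, *Stc1*, *Lepr*, *Dlk1*, *Ccl11*, *Ifitm1*, *Has2* and *Xdh*. *Plvap*, which forms the diaphragms of fenestrated endothelium, had 46 UMIs in 20 pericytes and 3 in the high cells (ratio 16.5, 5.30 to 82.9), but 45.7% of them came from 1 cell of library 15, the single pericyte with UMIs of the endothelial genes *Pecam1*, *Cdh5*, *Cldn5*, *Kdr* or *Emcn*. That cell also held 86 of the 88 *Selp* and 25 of the 30 *Sele* UMIs of all pericytes. Without it *Plvap* stood at 0.444 against 0.0485 transcripts per 10000 (log2 ratio 3.19) and was no longer higher in library 15. *Cyp1b1*, a cytochrome P450 of steroid and retinoid metabolism, was 13-fold higher (2.11 against 0.162; interval 6.84 to 27.8), and *Plac8* 9.09-fold (2.65 against 0.291). *Lepr*, the leptin receptor, which marks perivascular cells of several tissues, was 7.4-fold higher (0.958 against 0.129; 3.50 to 18). *Dlk1*, a non-canonical Notch ligand of progenitors, was 7.29-fold, *Ifitm1*, an interferon-inducible membrane protein, 7.19-fold, and *Has2*, a hyaluronan synthase, 6.83-fold higher. *Stc1*, the secreted glycoprotein stanniocalcin, was 8.19-fold higher, although it was uneven, at 2.70, 5.29, 1.6 and 0.233 in the 4 libraries, and 32.3% of its UMIs came from 1 cell.

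The 12 genes with the lowest ratio among the 230 were *Cnn1*, *P2rx1*, *Actg2*, *Gpr20*, *Smtn*, *Timp4*, *Kcnmb1*, *Myom1*, *Rergl*, *Mamdc2*, *Ldb3* and *Mgll*. Of these, *Cnn1*, *Actg2*, *Smtn*, *Kcnmb1* and *Rergl* belong to the contractile list. *P2rx1*, the ATP-gated channel by which sympathetic nerves contract arterioles, had 1 UMI in pericytes and 36 in the high cells, 33.5-fold lower (5.64 to 1358). *Myom1* and *Ldb3*, a myomesin and a Z-line protein, were 8.88- and 7.79-fold lower.

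Receptors and channels that set vascular tone were represented by 19 compared genes, with a median log2 ratio of 0.01. Of these, 2 were higher (against 3.6% over all genes compared) and 3 lower (against 4.24%). *Adra2a*, the α2A-adrenergic receptor, was among the higher, with 6.76, 5.39, 5.65 and 7.80 transcripts per 10000 in pericytes and 2.08, 1.10, 0.982 and 2.11 in the high cells, no overlap and a ratio of 4.11 (3.26 to 5.21). *Trpc6*, a calcium-permeable channel, was the other, 2.51-fold higher (0.731 against 0.291). *P2rx1*, *Kcnj2*, an inward-rectifier potassium channel, and *Itpr1*, the calcium release channel of the endoplasmic reticulum, were lower, the last 2.19-fold (0.696 against 1.52). The endothelin receptors differed: *Ednra* had 2.61 and 2.15, while *Ednrb* had 3.17, 2.55, 0.759 and 0.698 in pericytes against 0.579, 0.366, 0.931 and 0 in the high cells, where library 15 ran in the opposite direction. *Avpr1a*, a vasopressin receptor, and both subunits of the nitric oxide receptor, *Gucy1a3* and *Gucy1b3*, had log2 ratios of -0.22, -0.23 and 0.01.

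Pericytes lie in a basement membrane that they help to build, and 15 of its 24 genes were compared, with a median log2 ratio of 0.35. The laminin α chains split by member. *Lama2* had 1.48, 1.55, 1.26 and 2.21 transcripts per 10000 in pericytes and 0.338, 0.147, 0.465 and 0.248 in the high cells, 4.84-fold higher (2.96 to 8.30), and *Lama3* was 5.38-fold higher (0.522 against 0.0971). *Lama5* was at 1.32, 0.666, 1.18 and 0.698 against 2.85, 2.42, 2.12 and 2.36 in the high cells, 2.48-fold lower (1.82 to 3.42), and *Lama4* stood at 1.48 and 1.55. Of collagen IV, *Col4a5* was 4.73-fold lower (0.191 against 0.906), while the abundant *Col4a1* had 15.6 and 12.2, a ratio of 1.28. *Sparc*, a calcium-binding matrix protein, was the most abundant gene of the list and 2.01-fold higher, at 151, 155, 135 and 159 against 80.5, 50.5, 84.2 and 77.4. It stood at the limit of 2-fold (log2 ratio 1.01) and was under it without library 14 (0.86), with all transcripts in the total (0.92), as a mean over cells (0.92) and after thinning (0.98). *Mgp*, the matrix Gla protein that inhibits calcification, was also higher, with 24.7, 24.0, 17.5 and 21.8 against 4.40, 3.52, 3.37 and 6.84 and a ratio of 5.37 (4.69 to 6.15).

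Of 13 integrin and junction genes compared, 2 were higher (against 3.6% over all genes compared) and 4 lower (against 4.24%). *Cdh2*, the N-cadherin of pericyte contacts with endothelium, was 3.17-fold higher (0.975 against 0.307), next to *Gja4* above. *Itga8*, the integrin α8 of smooth muscle, was 4.2-fold lower (0.435 against 1.83), *Cdh13* (T-cadherin) 3.02-fold lower (0.714 against 2.15), and *Itga4* and *Bcam*, a receptor for laminin α5, had log2 ratios of -1.24 and -1.21.

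In the Notch list 11 genes were compared, of which 0 were higher and 2 lower (against 4.24% over all genes compared). *Hey2*, a Notch target of arterial cells, had 0.158, 0.111, 0.590 and 0.349 transcripts per 10000 against 0.917, 0.586, 1.45 and 0.745 in the high cells, 3.78-fold lower (2.12 to 7.16), with the pericyte value of library 15 above the lowest value of the high cells. *Notch1* was 2.13-fold lower (0.296 against 0.631). *Heyl*, the Notch target of mural cells, stood at 1.92 and 1.80, and *Jag1*, a ligand, at 1.22 and 2.07. Of 18 transcription factors of mural cells, *Meox2* and *Hic1* were higher, with log2 ratios of 1.13 and 1.30, and *Tbx2* was lower, with -1.31. The 15 others, among them *Ebf1* (0.66), *Epas1* (-0.75) and *Nr2f2* (-0.01), were counted as neither. Over all genes compared, 3.6% were higher and 4.24% lower.

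Of 23 growth factor and receptor genes, 4 were lower (against 4.24% over all genes compared). *Pgf*, placental growth factor, *Ctgf*, a matricellular protein, *Tgfb3* and *Fgf1* were 6.14-, 5.17-, 2.40- and 2.08-fold lower. *Kitl*, the stem cell factor on which mast cells depend, had 2.85, 2.05, 2.95 and 2.09 transcripts per 10000 in pericytes and 3.81, 2.49, 3.36 and 2.61 in the high cells. It was lower in pericytes in each library, but the values overlapped between the groups, with a ratio of 0.778 (0.624 to 0.969). Its log2 ratio of -0.36 depended on the setting. As a mean over cells it was -0.09, and with pericytes under 25 *Acta2* plus *Myh11* it was -0.63. *Angpt2*, which loosens the contact of pericytes and endothelium, had 2.19 and 1.55.

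**Figure D4:**
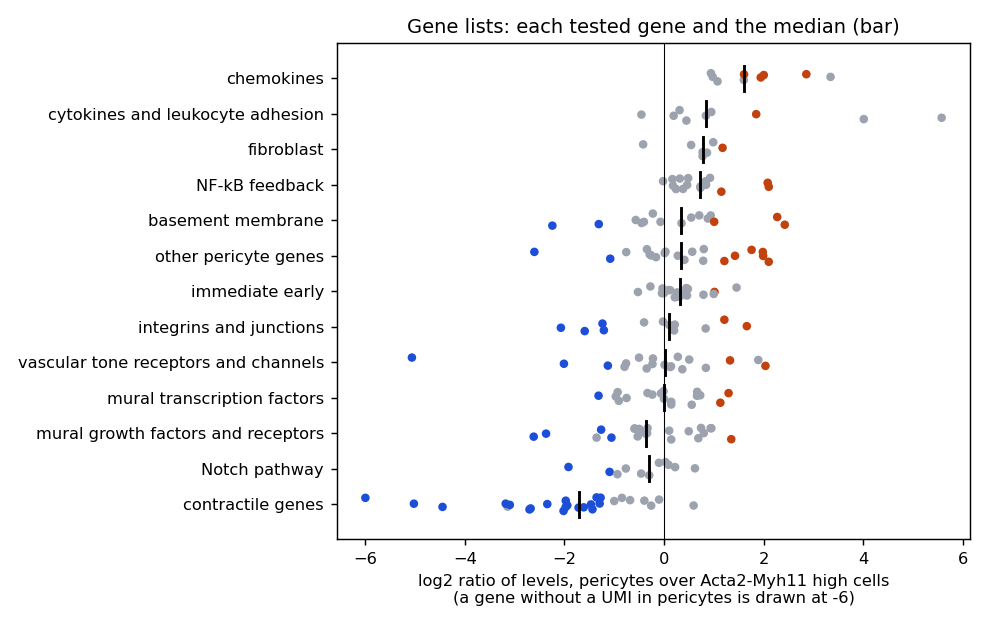
Log2 ratio of the levels in pericytes over those in *Acta2*-*Myh11* high cells for the compared genes of 13 lists, without the pericyte marker list, the endothelial list and the genes *Acta2* and *Myh11*. Orange points are genes counted as higher, blue points genes counted as lower, grey points neither, and *Cnn1*, with no UMI in pericytes, is drawn at the left edge, and black bars are the medians, which run from -1.72 for contractile genes to 1.61 for chemokines.

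Chemokine genes had the highest median of the 13 lists plotted above, which leave out the pericyte markers (2.29 over 4 genes) and the endothelial list (2.35 over 2 genes), a log2 ratio of 1.61 over 9 compared genes, of which 4 were higher and 0 lower. Chemokines are secreted proteins that direct leukocytes, and pericytes are known to release them at sites where leukocytes leave the vessel. The summed level of the list was 190, 268, 162 and 158 transcripts per 10000 in the pericytes of libraries 13, 14, 15 and 16 and 105, 65.7, 71.8 and 64.2 in the *Acta2*-*Myh11* high cells. The groups did not overlap, and over all cells the sum was 2.53-fold higher. *Ccl2*, which attracts monocytes through CCR2, had 48.7, 69.8, 40.3 and 33.5 against 18.7, 9.10, 11.7 and 10.6, a ratio of 3.85 (3.54 to 4.14). *Ccl11*, the eotaxin that acts on CCR3, had 12.1, 15.1, 15.6 and 11.9 against 2.32, 1.03, 2.69 and 0.373, a ratio of 7.26 (5.96 to 8.87). *Cxcl2*, a neutrophil chemokine, and *Cxcl12*, the ligand of CXCR4, were 4.01- and 3.05-fold higher. *Cxcl1* made up 51.7% of the chemokine transcripts of pericytes and was closer between the groups, with 98.5, 140, 77.1 and 86.5 against 69.4, 47.6, 47.1 and 48.1 and a ratio of 1.92 (1.83 to 1.99). *Cxcl10* and *Ccl7* stood at 7.10 against 3.37 and 4.53 against 1.49 over all cells, but *Cxcl10* overlapped between the libraries and *Ccl7* was lower in pericytes of library 15.

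The chemokine transcripts were unevenly spread over the pericytes. The sum per cell ran from 0 to 764 transcripts per 10000, with quartiles of 20.4 and 299 around a median of 75.9. In transcripts not scaled for depth, the 35 pericytes with most chemokine transcripts held 74.9% of those of all pericytes. That share thus also reflects the depth of the cells. The scaled sum reached 100 in 64 of 139 pericytes (46.0%) and in 43 of 150 *Acta2*-*Myh11* high cells (28.7%). By the median cell the libraries did not all run the same way: the medians were 72.0, 260, 88.9 and 36.7 in the pericytes and 59.8, 50.6, 33.0 and 51 in the high cells, so that in library 16 the median was lower in pericytes while the sum was higher. Among the 139 pericytes, cells with more chemokine transcripts also had more transcripts of NF-kB feedback genes (Pearson r = 0.75, Spearman rho = 0.80, from 0.66 to 0.81 within libraries) and of immediate early genes (r = 0.35, rho = 0.62, from 0.32 to 0.74 within libraries). With the cell's total transcripts rho was 0.33 and with its *Rgs5* level -0.30. These correlations are across cells of the same libraries, which share depth and handling, and have no test.

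**Figure D5:**
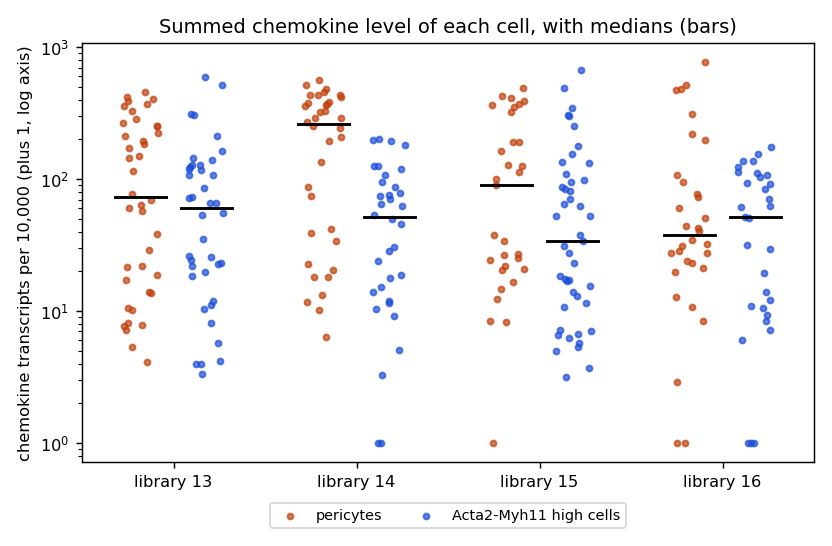
Summed chemokine transcripts per 10000 (plus 1, log axis) of each pericyte (orange) and each *Acta2*-*Myh11* high cell (blue) in the 4 libraries, with a bar at the median. Cells run from 0 to 764 in pericytes and from 0 to 664 in the others, and the median of pericytes is above that of the other cells in libraries 13, 14 and 15 and below it in library 16.

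Other inflammatory genes ran alongside. *Il6* had 70.5, 86.6, 60.2 and 39.5 transcripts per 10000 in pericytes against 42.9, 32.8, 31.4 and 31.2, a ratio of 1.93 (1.83 to 2.03), with 1 pericyte value, that of library 16, below the highest of the high cells. *Icam1*, the ligand of leukocyte integrins, was 3.61-fold higher (6.61 against 1.83), the one gene of 9 cytokine and adhesion genes counted as higher. Of 17 NF-kB feedback genes, 3 were higher and 0 lower, with a median log2 ratio of 0.73: *Tnfaip3*, the deubiquitinase A20, 4.24-fold, *Tnfaip2* 4.30-fold and *Nfkb1* 2.22-fold. *Nfkbia*, the inhibitor IκBα, stood at 27.5 and 22.0. By the median cell the NF-kB feedback sum was 84.8, 105, 54.8 and 20.8 in pericytes and 74.4, 72.2, 56.5 and 39.4 in the high cells. In libraries 15 and 16 that median was lower in pericytes. Immediate early genes, which are also induced while tissue is digested to single cells, had a median log2 ratio of 0.32 over 21 genes. Of these, 1 (*Egr2*) was higher, against 3.6% over all genes compared, and *Fos* stood at 12.8 and 11.0. The summed level of the immediate early list was 170, 197, 141 and 109 in pericytes and 149, 142, 120 and 124 in the high cells. That sum was lower in pericytes only in library 16, where the chemokine sum was also at its lowest among pericytes. By the median cell it was 108, 136, 124 and 95.7 in pericytes and 147, 153, 86.0 and 128 in the high cells. In library 15 alone was that median higher in pericytes. The part of tissue digestion in the chemokine levels was not tested.

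The stretches before the transcription start of 2 chemokine genes and of 2 pericyte markers are shown because they hold a match to the NF-kB motif, and that of the contractile gene *Myl9* because it holds a CArG box, the motif of serum response factor. Sequences are from RefSeq (GRCm38.p6), 5′ to 3′ on the strand of the gene, and end where the annotated gene begins. Capitals mark the motif found on either strand, with overlapping matches joined. The stretches are chr5:90890995-90891240, plus strand (*Cxcl1*), chr5:90903649-90903870, plus strand (*Cxcl2*), chr5:7960222-7960456, plus strand (*Steap4*), chr6:142702316-142702524, minus strand (*Abcc9*) and chr2:156775214-156775419, plus strand (*Myl9*).
Cxcl1: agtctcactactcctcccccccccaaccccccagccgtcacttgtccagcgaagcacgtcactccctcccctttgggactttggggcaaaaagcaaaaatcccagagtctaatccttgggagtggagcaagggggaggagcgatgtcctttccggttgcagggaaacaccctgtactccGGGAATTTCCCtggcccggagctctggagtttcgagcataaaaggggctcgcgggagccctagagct
Cxcl2: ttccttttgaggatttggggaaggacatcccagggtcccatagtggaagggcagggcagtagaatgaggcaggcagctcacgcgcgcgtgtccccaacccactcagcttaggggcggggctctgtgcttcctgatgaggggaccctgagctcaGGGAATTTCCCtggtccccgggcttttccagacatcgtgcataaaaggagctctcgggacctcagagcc
Steap4: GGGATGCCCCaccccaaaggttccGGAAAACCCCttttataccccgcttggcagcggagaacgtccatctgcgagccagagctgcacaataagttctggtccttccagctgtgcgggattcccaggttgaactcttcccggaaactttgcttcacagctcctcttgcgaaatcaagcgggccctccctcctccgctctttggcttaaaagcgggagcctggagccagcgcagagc
Abcc9: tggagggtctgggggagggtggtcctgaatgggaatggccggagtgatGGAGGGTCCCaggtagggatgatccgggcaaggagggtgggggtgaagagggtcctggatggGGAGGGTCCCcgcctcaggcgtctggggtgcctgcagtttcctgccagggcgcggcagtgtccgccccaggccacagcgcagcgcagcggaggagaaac
Myl9: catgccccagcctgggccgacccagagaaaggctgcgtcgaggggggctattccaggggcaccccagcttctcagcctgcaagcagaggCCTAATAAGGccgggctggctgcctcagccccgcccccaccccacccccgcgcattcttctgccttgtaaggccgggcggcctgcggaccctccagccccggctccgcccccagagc

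*Cxcl1* and *Cxcl2* carried the same 11 capital bases, and only *Cxcl2* was counted as higher. The stretch of the marker *Kcnj8* held no NF-kB match, and those of *Ccl2* and *Ccl11* were not available in the sources used here. Over the 250 bases before the start, 8.23% of 27025 genes with such a stretch had an NF-kB match, against 9 of 14 NF-kB feedback genes (64.3%), 2 of 4 marker genes, 5 of 15 Notch pathway genes (33.3%), 5 of 16 chemokine genes (31.2%), 5 of 26 contractile genes (19.2%) and 2 of 20 other pericyte genes. The Notch list held no gene counted as higher. These shares rest on few genes, and a part of the motif in the levels was not tested. Among the genes counted as higher in pericytes 23 of 148 (15.5%) had an NF-kB match, and among those counted as lower 22 of 168 (13.1%). The 27025 genes include genes with too few UMIs to be compared here. The share among the 5421 genes compared is not given, so 8.23% is not a like background for these sets. A CArG box was present in 1.62% of all genes and in 5 of 26 contractile genes. A match is a stretch of letters and was not tested for binding.

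Markers of other cell types were low in pericytes, with fibroblast genes as the exception. The 11 fibroblast genes, all with UMIs in pericytes, summed to 86.6 to 110 transcripts per 10000 in the libraries of pericytes, 35.8 to 72.7 in those of the *Acta2*-*Myh11* high cells and 955 over the other cells. Per cell, the median sum was 83.7 in pericytes and 37.4 in the high cells. Single pericytes reached 987 in library 13 and 656 in library 14, and a single high cell 525. The cell with most *Dcn* held 24.8% of the *Dcn* UMIs of all pericytes. *Col3a1* had 44.4 in pericytes, 22.4 in the high cells and 189 in the other cells, and *Dcn*, which defines fibroblasts, 4.92, 2.70 and 149. *Dpt* was the 1 fibroblast gene of 7 compared that was counted as higher, and *Pdgfra* and *Lum*, which define fibroblasts as well, had 0.191 and 0.279 in pericytes against 2.27 and 10.6 in the other cells. Their part in the matrix genes that were higher was not tested. The endothelial list summed to 1.79 to 6.67 in pericytes and 0.440 to 1.71 in the high cells, *Cldn5* was at 0 in both, and all 12 *Pecam1* UMIs came from the cell of library 15 described above. Keratinocyte, mast cell and Schwann cell lists summed to 0.470, 0.174 and 0.331 transcripts per 10000 over the pericytes, and 8 of 9 macrophage genes had UMIs, with sums of 2.77 to 6.75 in pericytes and 3.33 to 5.84 in the high cells. The striated muscle list, part of which the rule limited, summed to 1.10 in pericytes and 2.82 in the high cells. Single cells reached 51.2 and 67.0, and *Tnnt2* was counted as lower in pericytes.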

How the data were processed

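Ear skin cells were sorted by the authors from *Myh11-GFP* mice (CD45-GFP+ cells of tissue digests), and mCEL-Seq2 libraries of 96 wells were made. The authors aligned reads to ENCODE VM9 gene models (mm10 in the submitters' notes, with BWA 0.6.2-r126 and bcl2fastq 2.17.1.14), in the sense direction, discarded reads with several loci, merged overlapping loci and converted UMI counts to transcript counts by binomial statistics. The deposited tables hold these estimated transcript counts, not scaled for depth. All values went back to whole UMIs within 1e-06.

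Cells with over 1000 transcripts were kept, giving 330 as the number of cells in the 4 *Myh11-GFP* tables, no kept cell having over 2% *Kcnq1ot1*. Doublets were not called. For each group the cells' transcripts were added up with Python 3.11.15 (numpy 2.4.6, pandas 2.3.3, scipy 1.17.1) and scaled per 10000 outside genes named Gm plus a number. With 1 sample there was no test. Intervals of counts are exact Poisson, of ratios exact conditional and of shares exact binomial, at 95%, for counting error only. Named were the 12 highest and 12 lowest ratios, genes past 2-fold in each list, up to 6 of its most abundant genes, and all markers and paralogs. *Mgp*, *Ccl7*, *Ednrb*, *Gucy1b3*, *Lama4*, *Des*, *Synpo2*, *Lum*, *Pdgfra*, *Selp*, *Sele* and 4 of the 5 endothelial genes were named after their values were seen. The members and lists were chosen with earlier results of these data known. One result of the growth factor list is not reported here. Counting was checked on simulated data. Gene positions are from GENCODE M21 (GRCm38). Alternatives changed the total, filters, limits, fold, depth, unit and libraries.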

Additional observations from a re-analysis of the deposited data

Results flagged for a closer look

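Of 103 sets of 4 library values checked, 9 had 1 library far from the other 3, and chance alone flags about 1 in 20. In library 14 the *Acta2*-*Myh11* high cells had 99.7 *Rgs5* transcripts per 10000, against 129 to 134 in the others, and with it lower sums of the pericyte markers (102 against 131 to 137), of the other pericyte genes (64.3 against 71.1 to 72.3) and of the vascular tone genes (29.5 against 36.5 to 37.9). In library 13 the same cells had 69.4 *Cxcl1* (47.1 to 48.1 elsewhere) and 42.9 *Il6* transcripts per 10000 (31.2 to 32.8), and in library 16 a macrophage sum of 5.84 (3.33 to 3.74). In pericytes the Schwann cell sum was 1.26 in library 15 (0 to 0.211 elsewhere) and the striated muscle sum 1.89 in library 14 (0.632 to 0.843).

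In tables outside the comparison, 1 of the 2477 kept mast cells met the rule for pericytes. It was a WT cell with 6496 transcripts, 55.4 *Rgs5*, 137 *Cpa3*, 3.94 *Kcnj8* and 5.91 *Abcc9* transcripts per 10000 outside Gm genes, so that genes of both cell types were present in 1 well. Of the barcode sets not in use in the *Myh11-GFP* libraries, 8 barcodes passed 1000 transcripts, with 1385 to 2066 each, and all 8 were among the cells with striated muscle genes and in neither group compared.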

How the results depend on the processing

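No paired analysis was possible because no result comes from a test, the 4 libraries having been counted as 1 sample with the number of mice unknown. Both groups were set side by side within each library for every gene. Without 1 library at a time there were 99 to 108 pericytes, 188 to 233 genes higher and 204 to 238 lower, a contractile median log2 ratio of -1.85 to -1.55, a median of the other pericyte genes of 0.25 to 0.42 and a chemokine ratio of 2.06 to 3.08. With pericytes under 25 *Acta2* plus *Myh11* there were 73 pericytes and the contractile median was -2.35. With at least 10 UMIs 366 genes were higher and 408 lower, with at least 100 UMIs 88 and 82, with medians of -1.36 for contractile and 0.031 for the other pericyte genes, at 1.5-fold 429 and 482, and at 3-fold 71 and 92. With every cell thinned to 1000 UMIs 73 were higher and 83 lower, the contractile median was -1.44, and 44 and 50 of these genes were among the original calls. Without cells at 30 to 70, an alternative chosen after seeing the data as were keeping cells with striated muscle genes and leaving out the pericyte with endothelial genes, the contractile median was -2.44. All others of the 104 values of the main results, 88 in number, moved by less than 1.5-fold (counts) or less than 1 SD over the libraries, and 0 reversed. A count cannot reverse, and it can stay alike while its genes change. With pericytes under 25, 197 genes were higher and 314 lower, and 137 and 176 of these were among the original calls. Without cells at 30 to 70 there were 250 and 297, with 147 and 175 among the original calls. With all transcripts in the total 150 pericytes were found, with 176 genes higher and 276 lower. *Plvap* had no UMI in the high cells after thinning and no ratio there. Depth limits genes near 30 UMIs, where 1 cell can decide a value.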
